A study of Mus musculus with 9 samples.

Results

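Rad21 peaks of pre-B cells and of DP (CD4+CD8+) thymocytes were compared across chromosomes 1 to 19 of the mouse genome, build mm9, with the 6 antigen receptor loci left out. The members were the confident peaks that the authors called in each cell type: 29557 of 30488 deposited peaks in pre-B cells and 35645 of 36743 in DP thymocytes remained. Joined where they overlapped by 1 bp or more, they formed 44912 sites. The 5 lists of the series hold 190262 deposited peaks in all. All cells came from RAG1-deficient C57BL/6 mice, which cannot rearrange their antigen receptor genes. The pre-B cells, labelled RAG-/-µ+, were bone marrow cells of mice aged 6 to 14 weeks that carry a rearranged IgM transgene, and this transgene takes them past the block at the pro-B stage. The DP thymocytes came from Rag1-/- mice aged 4 to 8 weeks with a rearranged TCRβ transgene, which moves thymocytes from the DN (CD4-CD8-) to the DP stage. The other lists, used only as readouts at these sites, were CTCF in pre-B cells, CTCF in RAG1-/- pro-B cells from mice aged 6 to 14 weeks and cultured with IL7 for 7 days, and Rad21 in DN thymocytes of Rag1-/- mice aged 4 to 8 weeks. Each antibody and cell type has 1 library, so no difference could be set against a spread between animals, and no test between cell types was made. The lineage labels cannot be checked against marker expression in peak lists. Peaks around lineage genes are given below.

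Rad21 is the subunit that closes the cohesin ring. Cohesin extrudes loops of chromatin and is held at many places by CTCF, a zinc finger protein that binds a directional motif, so that cohesin peaks mark loop anchors at CTCF sites. Cohesin is also loaded or found at active promoters and enhancers, where transcription factors of the lineage rather than CTCF are bound. Pre-B cells are specified by EBF1, PAX5 and E2A, and DP thymocytes by TCF1, BCL11B, GATA3, RUNX and E proteins. A site is called here "in both" when peaks of the lists overlapped, and "pre-B only" or "DP only" when only that list had a peak there. A site called in 1 list was not called in the other, which does not mean that cohesin was absent there.

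Sequences of 5 sites show the kinds of site that the comparison turned on. All are from the plus strand of the mm9 reference. In the first pair, 150 bases around the best match to the CTCF consensus are shown with the match in capitals. The site near Lrrc32 (chr7:105629161-105630298, window 105629632-105629781) ranked above 99.9% of pre-B peaks and 99.5% of DP peaks, and its match had 0 mismatches. The site in an intron of Pax5 (chr4:44685249-44686335, window 44685483-44685632) was pre-B only, ranked above 87.1% of pre-B peaks and had 2 mismatches. In the other 3, the 300 bases at the centre of the site are shown with matches to short motifs in capitals. None of these 3 overlapped a CTCF peak of pre-B or IL7-cultured pro-B cells. The pre-B-only site at chr13:112725964-112727194 (window 112726429-112726728) is shown because it was the strongest distal site of its class without B-lineage CTCF that held an EBF motif, and it also held a RUNX motif. The DP-only site at chr1:51641313-51642438 (window 51641726-51642025) is shown because it was the strongest distal one without B-lineage CTCF that held both an ETS and a RUNX motif. It held 2 RUNX matches and 1 match each to the ETS, E-box and ROR motifs. The DP-only site at chr12:108355514-108357939 (window 108356577-108356876) was the strongest of its class, ranked above 99.9% of DP peaks and lies in the desert next to Bcl11b. No motif searched was found in its window.
In both, near Lrrc32: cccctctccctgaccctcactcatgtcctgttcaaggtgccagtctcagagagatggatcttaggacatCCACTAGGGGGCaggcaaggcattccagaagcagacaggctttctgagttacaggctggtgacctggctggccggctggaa
Pre-B only, Pax5 intron: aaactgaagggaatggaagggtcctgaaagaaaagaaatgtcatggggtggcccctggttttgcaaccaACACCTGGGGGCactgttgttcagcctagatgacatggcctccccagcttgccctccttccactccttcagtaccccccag
Pre-B only, distal with EBF: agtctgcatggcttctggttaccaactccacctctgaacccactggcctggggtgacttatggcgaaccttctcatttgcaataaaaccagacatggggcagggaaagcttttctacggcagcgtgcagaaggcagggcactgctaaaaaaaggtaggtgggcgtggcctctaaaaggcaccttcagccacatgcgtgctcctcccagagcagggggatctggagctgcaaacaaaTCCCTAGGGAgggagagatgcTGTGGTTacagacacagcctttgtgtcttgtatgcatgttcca
DP only, distal with ETS and RUNX: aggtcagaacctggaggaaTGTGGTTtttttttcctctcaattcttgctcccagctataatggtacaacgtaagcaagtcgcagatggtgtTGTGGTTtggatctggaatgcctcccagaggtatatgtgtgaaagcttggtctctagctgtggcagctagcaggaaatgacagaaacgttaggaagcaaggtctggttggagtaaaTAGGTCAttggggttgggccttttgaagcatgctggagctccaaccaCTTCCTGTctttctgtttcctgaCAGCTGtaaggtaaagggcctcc
DP only, Bcl11b desert: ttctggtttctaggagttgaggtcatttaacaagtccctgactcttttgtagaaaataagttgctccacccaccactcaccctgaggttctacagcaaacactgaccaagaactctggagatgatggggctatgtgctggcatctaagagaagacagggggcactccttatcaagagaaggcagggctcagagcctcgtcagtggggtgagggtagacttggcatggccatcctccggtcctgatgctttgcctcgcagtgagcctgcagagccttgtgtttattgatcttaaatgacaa

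To ask how far cohesin sites are common to the B and T lineages, the peaks of each list were matched to the other. Of the pre-B peaks, 19924 (67.4%, interval 66.9 to 67.9) overlapped a DP peak, and 32.6% did not. Of the DP peaks, 20105 (56.4%, interval 55.9 to 56.9) overlapped a pre-B peak, and 43.6% did not. All intervals are exact Clopper-Pearson intervals at 95% and cover counting error only. As sites, 19739 (44.0%) were in both, 9633 (21.4%) were pre-B only and 15540 (34.6%) were DP only. The DP list is longer. With the DP list cut to its 29557 strongest peaks, which removed 6088 peaks, the shares came to 61.9% of pre-B and 62.2% of DP peaks. Peaks without a counterpart then made up 38.1% of the pre-B list and 37.8% of the cut DP list, with 11259 pre-B-only and 11177 DP-only sites. With lists of equal length and mostly 1 peak of each list at a shared site, these numbers are bound to be close. On single chromosomes, pre-B-only sites made up from 18.7% (chromosome 11) to 23.4% (chromosomes 4, 8 and 17) of the sites, and DP-only sites from 30.3% (chromosome 7) to 39.7% (chromosome 18).

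The strongest peaks were nearly all in both lists, and the share fell along each list. Among the 2956 pre-B peaks of highest score, 98.0% overlapped a DP peak and 59 did not, whereas among the 2955 of lowest score 35.7% did. Among the 3565 DP peaks of highest score, 95.3% overlapped a pre-B peak and 169 did not, against 26.7% of the 3564 lowest. The median pre-B-only site ranked above 27.2% of pre-B peaks and the median DP-only site above 32.1% of DP peaks. The median site in both ranked above 63.6% of the pre-B list and 66.9% of the DP list. Peaks without a counterpart were seldom a shifted copy of a neighbour: the nearest peak of the other list lay at a median distance of 14455 bp for pre-B peaks and 14814 bp for DP peaks, and within 500 bp in 4.09% and 4.03% of cases. Within the 19739 sites in both, the ranks in the lists went together only in part, with a Spearman correlation of 0.588 across sites, which are not independent replicates. At 902 of them the DP rank lay over 50 points above the pre-B rank, and at 587 the pre-B rank lay as far above. The lists differ in length, and these counts were not repeated at equal length.

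**Figure D1:**
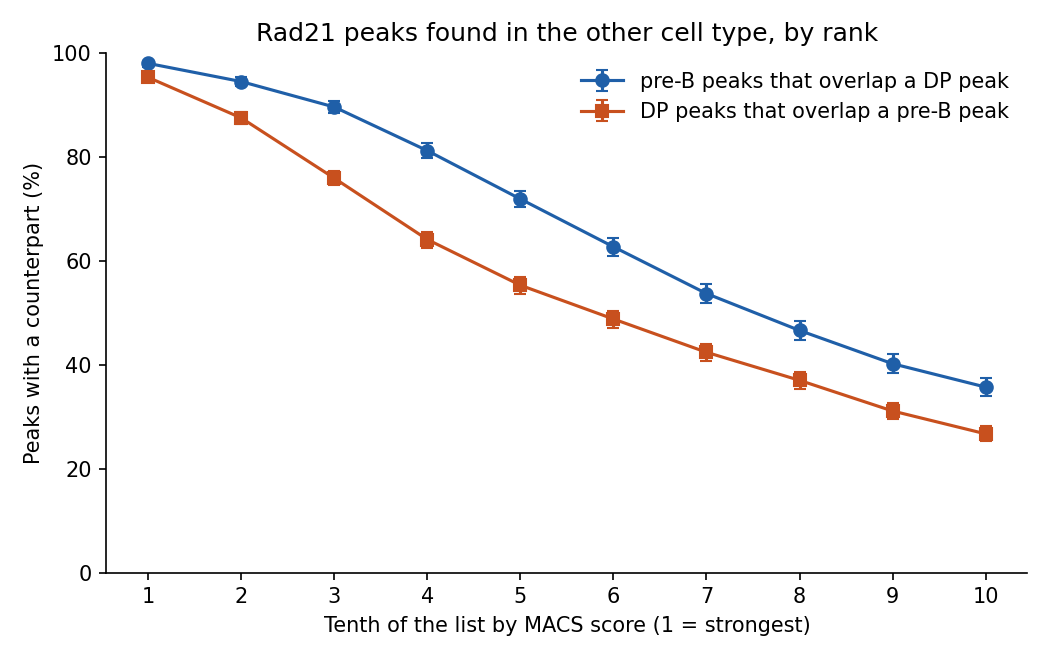
Share of peaks (%) that overlap a peak of the other cell type, by groups of equal size in order of MACS score, with exact 95% intervals. Both curves fall from the strongest to the weakest peaks, from 98.0% to 35.7% for pre-B and from 95.3% to 26.7% for DP. The lists differ in length, so the gap between the curves is not a comparison at equal length, where the shares over the whole lists were 61.9% and 62.2%.

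DP-only sites lay at promoters far more often than pre-B-only sites. A promoter here is 1000 bp on either side of an annotated start site, which covers 3.33% of chromosomes 1 to 19. It held 5016 of 15540 DP-only sites (32.3%, interval 31.5 to 33.0), 1323 of 9633 pre-B-only sites (13.7%, 13.1 to 14.4) and 3842 of 19739 sites in both (19.5%, 18.9 to 20). Read the other way, 49.3% of the 10181 promoter sites were DP only and 13% were pre-B only. Of the 34731 distal sites, 30.3% were DP only, 23.9% were pre-B only and 45.8% were in both. Intergenic sites made up 42.8% of pre-B-only, 41.3% of shared and 31.7% of DP-only sites, and introns held 39.4%, 35.2% and 33.1%. The promoter share of DP-only sites was 34.9% (31.9 to 37.9) of the 1001 sites ranked above 75% of the DP list and 29.5% (28.4 to 30.7) of the 6237 in the lowest 25%. That of pre-B-only sites was 8.77% of the 365 strongest by the same rule and 15.5% of the 4479 weakest. The cut of the DP list gave 33.5% for DP-only and 14.4% for pre-B-only sites. Promoter sites of the DP-only class were also richer in G and C, with a median of 63.0% over the central 300 bases against 55.0% in pre-B-only promoter sites, while distal sites had medians of 49.7% and 47.7%. Whether base composition has a part in these calls was not tested.

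**Figure D2:**
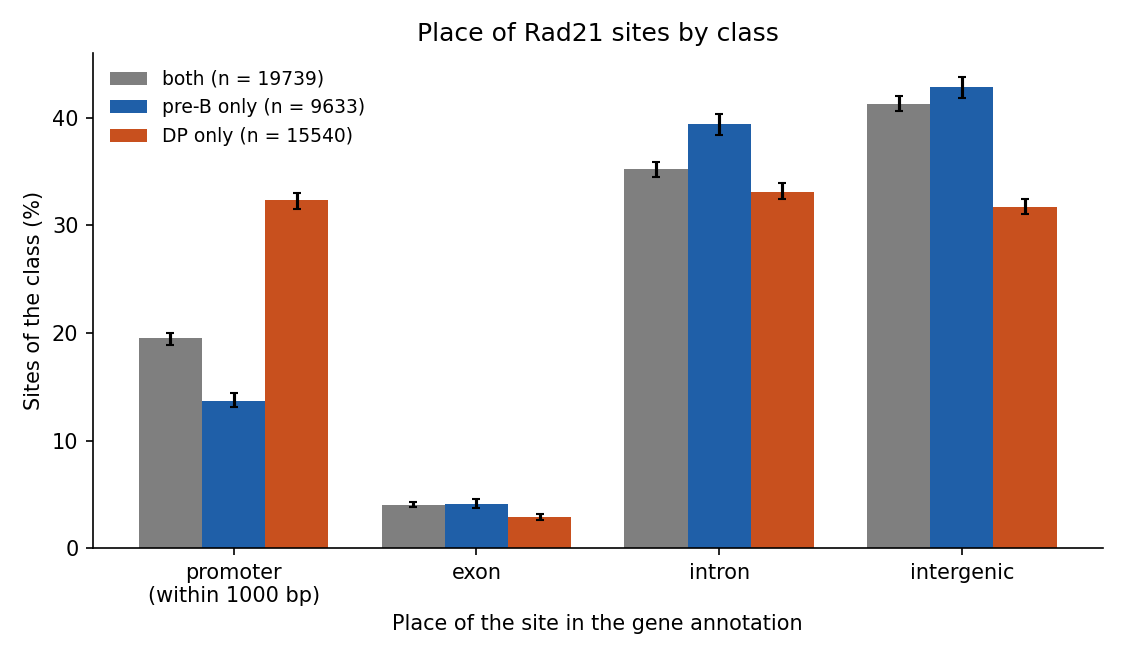
Share of the sites of each class (%) at promoters, in exons, in introns and between genes, with exact 95% intervals. The promoter bar of DP-only sites (32.3%) stands above those of sites in both (19.5%) and of pre-B-only sites (13.7%).

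CTCF peaks of the B lineage were found at most pre-B-only sites and at a minority of DP-only sites. CTCF peaks of pre-B cells overlapped 18324 of the sites in both (92.8%), 7595 of the pre-B-only sites (78.8%, interval 78.0 to 79.7) and 2912 of the DP-only sites (18.7%, 18.1 to 19.4). CTCF peaks of IL7-cultured pro-B cells, a longer list, overlapped 94.9%, 81.9% and 33.6%. A peak of either CTCF list lay at 95.8%, 85.8% and 35.1%, and at 42.7% of DP-only promoter sites. Pre-B CTCF and pre-B Rad21 come from the same kind of cells and share an input, while thymocyte CTCF was not analysed here. These shares do not say how many DP-only sites held CTCF in DP cells. Among pre-B-only sites the CTCF share rose with rank, from 66.1% in the lowest 25% of ranks to 98.9% in the highest, whereas among DP-only sites it was 16.9% and 24.2%. This depended on list length for the strongest sites: with both lists cut to their 10000 top-scoring peaks, 64.6% of DP-only sites overlapped a pre-B CTCF peak, since a site then counted as DP only when its pre-B peak ranked lower. Without a B-lineage CTCF peak of either list were 10086 DP-only and 1372 pre-B-only sites, of which 28.5% and 22.2% were promoter sites, beside 51.3% of the 820 such sites in both.

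The DNA of the sites was also read for the CTCF consensus, which the study derived from B-lineage CTCF peaks, so this readout is not independent of them. The consensus, allowed up to 2 mismatches on either strand, was present in the central 300 bases of 45.3% of sites in both (44.6 to 46.0), 35.1% of pre-B-only sites (34.2 to 36.1) and 12.6% of DP-only sites (12.1 to 13.2). Windows 2000 bp away held it in 4.32%, 4.30% and 3.47%. All 3 classes thus exceeded their own surroundings, and DP-only sites by the smallest margin. DP-only sites without a B-lineage CTCF peak held the consensus in 5.91%, those with one in 25.1%. For pre-B-only sites these shares were 7.14% and 39.8%.

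DN thymocytes, which precede the DP stage, shared few of the sites called in 1 list at full list length. Their Rad21 list is short, with 9466 peaks. It overlapped 8476 sites in both (42.9%, 42.2 to 43.6), 377 pre-B-only sites (3.91%, 3.54 to 4.32) and 423 DP-only sites (2.72%, 2.47 to 2.99). Among sites ranked above 75% of their list, DN peaks overlapped 18.4% of pre-B-only and 16.8% of DP-only sites. For sites in both at such ranks the share was 76.5% by pre-B rank and 73.9% by DP rank. Over all 44912 sites it was 20.7%. With both lists cut to their 10000 top-scoring peaks the shares were 34.7% of pre-B-only and 31.1% of DP-only sites, where a site also counts as called in 1 list when its partner peak ranked lower. The low shares thus held for the full lists.

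**Figure D3:**
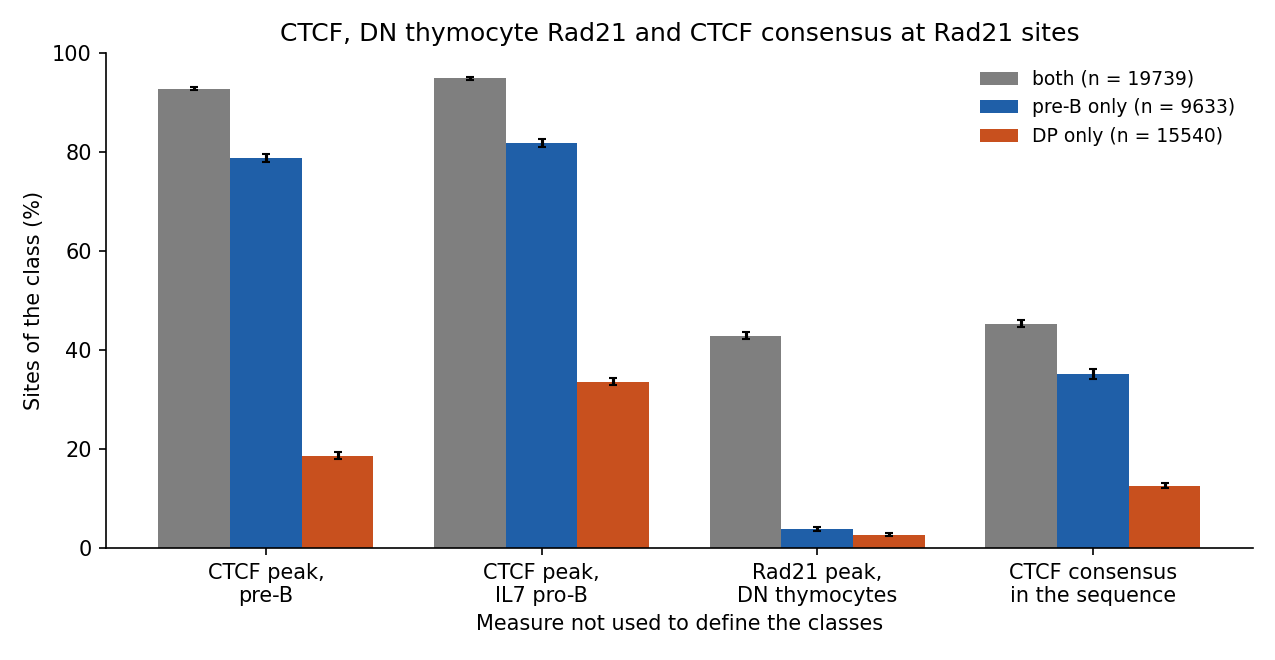
Share of the sites of each class (%) that overlap a CTCF peak of pre-B cells, a CTCF peak of IL7-cultured pro-B cells or a Rad21 peak of DN thymocytes, or that hold the CTCF consensus within 2 mismatches, with exact 95% intervals. Sites in both and pre-B-only sites overlap B-lineage CTCF peaks far more often than DP-only sites. CTCF of thymocytes was not analysed. DN peaks are found mainly at sites in both.

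At distal sites without B-lineage CTCF, the EBF, PU.1 and OCT motifs and the E-box were found more often in pre-B-only than in DP-only sites, and the ETS, TCF, RUNX and GATA motifs less often. The 300 central bases of 1067 pre-B-only and 7213 DP-only sites of this kind were searched on both strands, with the same window 2000 bp away as the surroundings. The EBF motif (TCCC and GGGA with 2 bases between), the palindrome of EBF1, was found in 42 pre-B-only sites (3.94%, 2.85 to 5.28) and 43 DP-only sites (0.596%, 0.432 to 0.802), beside 0.469% and 0.679% of the surrounding windows. The intervals did not overlap, and only the pre-B-only sites exceeded their surroundings. The PU.1 motif (GAGG followed by AAGT), bound by PU.1 and SPIB, was found in 10.1% (8.38 to 12.1) of pre-B-only and 5.88% (5.35 to 6.45) of DP-only sites. The OCT motif (ATGC followed by AAAT) was found in 3.56% (2.53 to 4.86) and 1.26% (1.02 to 1.55). In the other direction, the ETS motif (ACAG followed by GAAG) was found in 8.43% (6.84 to 10.3) of pre-B-only and 11.9% (11.2 to 12.7) of DP-only sites. The TCF motif (CTTTGAT), read by TCF1 and LEF1, was found in 3.28% (2.30 to 4.53) and 6.20% (5.65 to 6.78), the latter beside 5% of the surrounding windows. The RUNX motif (AACCACA) was found in 11.5% and 14.6%, and its intervals of 9.67 to 13.6 and 13.8 to 15.4 were just apart. The E-box (CAGCTG) of E2A and HEB was the most frequent in both classes, at 34.8% (31.9 to 37.7) and 29.2% (28.1 to 30.2) against 14.4% and 14.8% of the surroundings. The GATA motif (AGATAA) was found less often at sites than around them, in 9.65% (7.95 to 11.6) and 13.1% (12.3 to 13.9) against 14.6% and 16.1%, and the ROR motif (TAGGTCA) was found in 3.09% and 3.27%. The 399 distal sites in both without B-lineage CTCF held the ETS motif in 12.5% (9.45 to 16.2), close to the DP-only share, the E-box in 37.8% (33.1 to 42.8) and PU.1 in 7.02% (4.71 to 9.98). Their shares of EBF, OCT, RUNX and TCF were 1.25%, 1.5%, 12% and 3.01%. Distal sites with B-lineage CTCF numbered 7243 pre-B-only and 3311 DP-only. Shares there were 1.1% and 1.18% (EBF), 2.93% and 3.32% (PU.1), 1.85% and 1.3% (OCT) and 16.9% and 19.2% (E-box). For ETS, TCF, RUNX and GATA they were 3.71% and 6.86%, 4.43% and 3.56%, 10.7% and 11%, and 13.1% and 11.8%. Over all 44912 sites the shares were 1.05% for EBF, 3.44% for PU.1, 1.35% for OCT, 5.41% for ETS, 9.30% for RUNX, 3.93% for TCF, 20.5% for the E-box, 11.2% for GATA and 2.53% for ROR. The PU.1 and ETS words both hold the GGAA core but do not match at the same position. A match describes the letters of the window and does not show that the factor was bound.

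**Figure D4:**
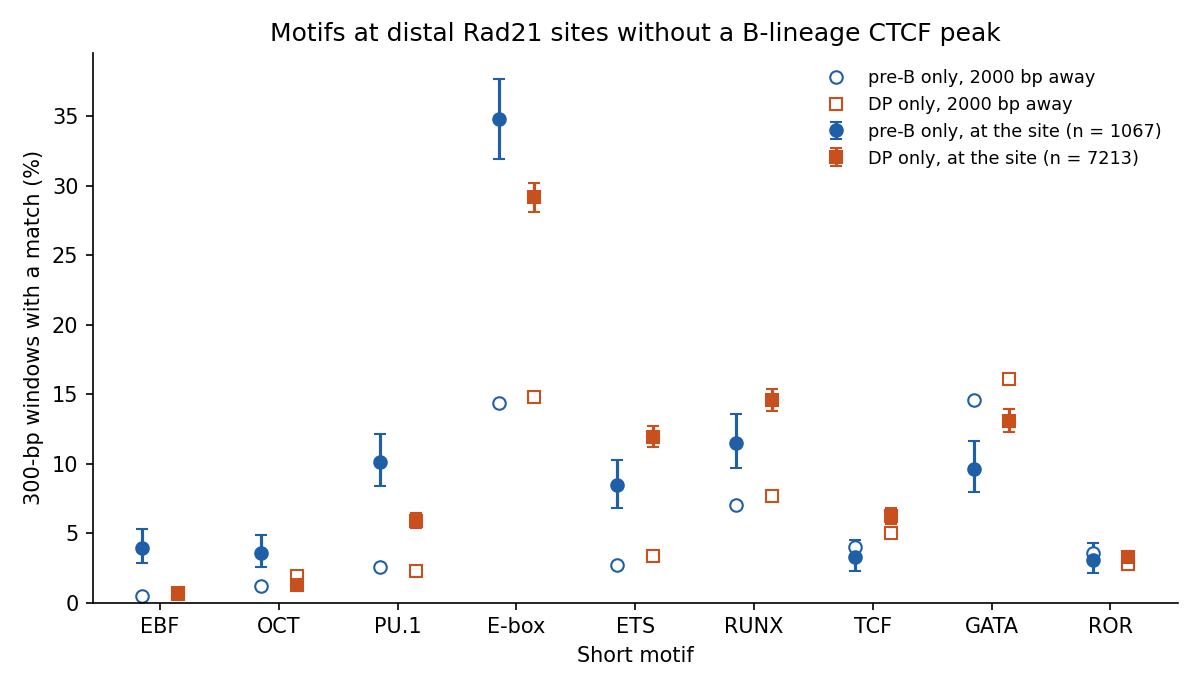
Share of 300-bp windows (%) that hold each short motif at distal sites without a B-lineage CTCF peak (filled, with exact 95% intervals) and 2000 bp away (open), for 1067 pre-B-only and 7213 DP-only sites. EBF, OCT, PU.1 and the E-box lie higher in pre-B-only sites and ETS, RUNX, TCF and GATA in DP-only sites, while both classes exceed their surroundings for PU.1, the E-box, ETS and RUNX.

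At promoter sites without B-lineage CTCF, the GC-box (GGGCGG) of SP factors was found in 49.5% of 2873 DP-only sites (47.6 to 51.3) and 32.5% of 305 pre-B-only sites (27.2 to 38.0), against 6.40% and 7.21% of the surroundings. The 421 such sites in both held it in 48% (43.1 to 52.9), close to the DP-only share, and all 44912 sites in 15.8%. The PU.1 motif was found in 10.8% (7.57 to 14.9) of pre-B-only and 3.24% (2.62 to 3.95) of DP-only promoter sites, and was the only motif higher in pre-B-only promoter sites whose intervals did not overlap. EBF matches, at 1.64% and 1.53%, did not separate the promoter sites.

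The strongest sites of each class are described next. All 10 highest-ranked pre-B-only sites overlapped a CTCF peak of pre-B cells and of the IL7 culture, and 9 of them had no DN peak. The first, at chr11:45352480-45353423, ranked above 99.7% of pre-B peaks and lies 312556 bp from the nearest start site, that of Clint1, in the desert beyond Ebf1. The next lay 9394 bp from Slc22a12, and the others nearest 1700057K13Rik, Slpi, Cdh5, Tomm20, E130309F12Rik, 2900026A02Rik, Dusp22 and Zpld1. Slpi encodes a protease inhibitor and Cdh5 the cadherin of endothelium. Of the 10 highest-ranked DP-only sites, 1 overlapped a pre-B CTCF peak, 5 a CTCF peak of the IL7 culture and 7 a DN peak. Among all DP-only sites ranked above 75% of the DP list, these shares were 24.2%, 45.3% and 16.8%. For pre-B-only sites ranked above 75% of the pre-B list they were 98.9%, 97.3% and 18.4%. Of the 10 DP-only sites, 3 lie between 364593 and 402257 bp from 3110018I06Rik in the desert next to Bcl11b, and their ranks in the DP list were 99.9, 99.7 and 99.4. Another lies 119985 bp from Psmg1, and 2 are at the promoters of Slco3a1 and Map4k5. The remaining 4 lay nearest Bmp7, Asb1, Ptpn14 and Klf3.

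Sites of 1 class also came in unbroken runs along the chromosome, in which the more numerous DP-only class (34.6% of sites against 21.4%) had the longer ones. Runs of at least 5 consecutive DP-only sites numbered 624 and held 4782 sites, against 175 pre-B-only runs with 1148 sites. After the cut of the DP list the numbers were 404 runs with 2945 sites and 272 with 1843, and the longest held 79 and 17 sites, a count added after the data were seen. In the full lists the longest held 101 DP-only sites over 1708 kb (chr12:107527053-109235382), from the desert into Bcl11b, a zinc finger factor needed for T-lineage commitment. Its sites had a median DP rank of 44.4, from 0.665 to 99.9, 7 were at promoters, 4 overlapped a DN peak, 0 a pre-B CTCF peak and 3 a CTCF peak of the IL7 culture. In the cut DP list 79 sites were left in this stretch. The second held 34 sites over 96.4 kb (chr6:71251899-71348275) across Smyd1, Cd8b1, Cd8a and Rmnd5a, with 28 after the cut. Cd8b1 and Cd8a encode the chains of the CD8 coreceptor. A run of 23 sites over 276 kb (chr17:52322870-52598432) lies in the desert nearest Satb1, a chromatin organiser of thymocytes, and had a median rank of 61.7. The other DP-only runs were 27 sites around Wdr78 and Mier1 on chromosome 4 and 23 sites on chromosome 13 in a stretch nearest Prl5a1. The longest pre-B-only run held 16 sites over 648 kb (chr11:44902747-45550755) in the desert that follows Ebf1, with 0 at promoters and 10 at pre-B CTCF peaks. A run of 14 sites over 388 kb (chr4:44338115-44726307) covered Melk and Pax5, with 11 at pre-B CTCF peaks. The others were 14 sites around Sumo3 on chromosome 10, 13 in the desert nearest Nox3 on chromosome 17 and 13 around Klhl14 on chromosome 18. The 5 pre-B-only runs, of 16, 14, 14, 13 and 13 sites, had 10, 10, 11, 9 and 7 sites at CTCF peaks of pre-B cells. The 5 DP-only runs, of 101, 34, 27, 23 and 23 sites, had 0, 0, 2, 0 and 1. Over all sites of these classes the shares were 78.8% and 18.7%.

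Sites within 20 kb of a gene body were then counted for lists of genes. Over 21355 protein-coding genes outside the receptor loci, 36.1% had a pre-B-only site and 42.7% a DP-only site, and these shares are the background for the counts below. For counts of sites, the background is 0.62 pre-B-only sites per DP-only site over all sites. The counts were not adjusted for gene length, whose median was 15.6 kb overall. With gene bodies widened by 50 kb the background shares are 51.8% and 56%.

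Around the pre-B receptor and its signalling genes, pre-B-only sites outnumbered DP-only sites by 29 to 5. Of 20 genes, 14 (70.0%) had a pre-B-only and 6 (30.0%) a DP-only site, at a median length of 12.5 kb. Within 50 kb, 12 had a DP-only site. Plcg2, the phospholipase downstream of the receptor, had 4 pre-B-only and 0 DP-only sites, the strongest at rank 84.0 in the pre-B list and 20 kb before its start. Lyn, a Src-family kinase, had 5 and 0, with ranks up to 80.3 for a site in its intron. Cd79a and Cd79b, which encode the signalling chains of the receptor, had 2 and 4 pre-B-only sites and 0 DP-only sites, and the strongest at Cd79b lay at its promoter at rank 43.0. Syk, the kinase that binds the phosphorylated chains, had 2 pre-B-only and 1 DP-only site. Cd22, a surface regulator of the signal, had 1 pre-B-only site, and Bank1, an adaptor, had 3. Vpreb1 and Igll1, the surrogate light chain, share their neighbourhood, with 2 sites in both, 1 DP-only site of rank 17.6 and 0 pre-B-only sites. Blnk and Cr2 had only sites in both, and Ms4a1, which encodes CD20, had no site.

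The B-lineage transcription factors were divided. Of 12, with a median length of 57.2 kb, 8 (66.7%) had a pre-B-only and 9 (75%) a DP-only site, with 34 and 46 sites. All 11 sites around Pax5 were pre-B only, with ranks up to 87.1, and there was no site in both or DP only. Ebf1 had 7 pre-B-only sites against 2 DP-only sites, Spib had 6 against 1 with ranks up to 62.1, and Spi1, which encodes PU.1, had 3 against 0. Irf8 had 3 against 2, and its strongest, at rank 57.2, lay in an exon without B-lineage CTCF. Ikzf1, Ikzf3 and Bach2 went the other way. They had 18, 8 and 8 DP-only sites and 0 pre-B-only sites, and these factors act in T-cell precursors too. The strongest at Ikzf1, which encodes Ikaros, were at DP ranks of 82.8 and 80.6. Tcf3, the gene of E2A, had 2 of each. Irf4 and Foxo1 also had more DP-only sites, 3 and 2 against 1 pre-B-only site each. Pou2af1 had only a site in both.

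DP-only sites dominated around T-lineage genes. Of 16 T-lineage transcription factors, 13 (81.2%) had a DP-only and 4 (25.0%) a pre-B-only site, with 113 against 9 sites and a median length of 51.7 kb. Within 50 kb, 10 had a pre-B-only site. Lef1 had 13 DP-only and 0 pre-B-only sites, and the one at its promoter (chr3:130813048-130816475) ranked above 98.6% of DP peaks. Bcl11b had 19 and 0, with ranks up to 94.6 just before its start. Tcf7, which encodes TCF1, had 15 and 0 with ranks up to 84.6, and Gata3 had 9 and 0 up to 81.9. Ets1, which acts in both lineages, was mixed, with 17 DP-only and 4 pre-B-only sites. Notch1 had 4 and 3, and Notch3 had 0 and 1. Zbtb7b, the factor of CD4 T-cell fate, and Egr1 had only sites in both, 3 each.

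Every one of the 22 genes of the T-cell receptor complex and its signalling had a DP-only site (100%), against 6 (27.3%) with a pre-B-only site, and there were 145 DP-only and 12 pre-B-only sites. The median length was 20.9 kb, and within 50 kb 11 had a pre-B-only site. After the cut of the DP list 21 of the 22 still had one. All 19 sites around Cd8b1 were DP only, and the strongest, at its promoter (chr6:71271705-71276179), had rank 96.2. Cd8a, whose neighbourhood it partly shares, had 16 of 17. The CD3 genes Cd3e, Cd3d and Cd3g, in 1 cluster on chromosome 9, had 11, 9 and 10 DP-only sites, partly the same ones, and 0 pre-B-only sites. Thy1 had 7 DP-only sites and 0 pre-B-only, the strongest at its promoter at rank 94.6, and Themis, needed for positive selection, had 3 and 0 with a promoter site at rank 93.8. Cd4 had 6 and 0, and Cd28, a costimulatory receptor, had 7 and 0 with no site in both. Ptcra, which encodes the pre-TCRα chain, had 4 and 0. Zap70, the kinase bound by the phosphorylated CD3 chains, had 1 DP-only and 2 pre-B-only sites. The strongest pre-B-only site of the list, of rank 61.1, lay 5.3 kb before the start of Cd2, an adhesion receptor that had 4 DP-only and 3 pre-B-only sites.

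Of 10 recombination and end-joining genes, with a median length of 46.1 kb, 5 (50%) had a pre-B-only and 5 (50%) a DP-only site, with 8 and 23 sites. Within 50 kb these were 9 and 8 genes. Rag1, Rag2 and Dntt, which encode the recombinase and terminal transferase, had 8, 9 and 7 DP-only sites and 0 pre-B-only, and Rag1 and Rag2 lie side by side and share most of theirs. The promoter of Rag1 held a DP-only site of rank 83.3, and one of rank 93.0 lay 16.1 kb before Rag2. Xrcc4, Lig4, Xrcc5 and Nhej1, repair factors of all cells, had 1 or 2 pre-B-only and 0 DP-only sites. Among the other repair genes, Dclre1c, which encodes the hairpin-opening nuclease Artemis, had 4 DP-only and 0 pre-B-only sites, Xrcc6 had 3 and 2, and Prkdc had only sites in both. Of 9 genes of the cohesin and CTCF machinery, with a median length of 74.1 kb, 8 (88.9%) had a DP-only and 4 (44.4%) a pre-B-only site, with 17 against 4 sites. Wapal, whose protein releases cohesin from DNA, had 5 DP-only sites and no other, the strongest at rank 76.5 and 11.9 kb before its start. Smc3 and Pds5b had 1 DP-only site each, at promoters and at ranks of 65.3 and 70.1. Nipbl had 5, of which the strongest, at rank 47.9, lay at its promoter, and Rad21 itself had no site of any class.

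Lists of other cell types that bone marrow or thymus could hold were counted in the same way. The median gene lengths of the myeloid, erythroid and stromal lists were 7.91, 4.68 and 22.9 kb. Of 10 myeloid markers, 6 (60.0%) had a pre-B-only and 2 (20%) a DP-only site, with 11 and 3 sites. Mpo and Cebpe had only sites in both, Lyz2 had 1 pre-B-only site of rank 7.63 and Ctsg had none. The strongest, at rank 74.8, lay in an intron of Itgam at a pre-B CTCF peak, as did those near Fcgr3, Elane and Cebpa at ranks of 74.1, 65.0 and 52.0. Of 7 erythroid markers, 3 had a pre-B-only and 1 a DP-only site, all at ranks of 38.9 or lower. Of 10 epithelial and stromal markers, 7 (70.0%) had a pre-B-only and 4 (40.0%) a DP-only site, with 19 and 10 sites, among them a pre-B-only site of rank 98.6 at 2.4 kb before Cdh5 and 7 DP-only sites around Pecam1. The myeloid and stromal shares are about as high as those of the B-lineage lists, so a high share of genes with a pre-B-only site was not particular to B-lineage genes. The part of other cells in these calls was not tested.

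**Figure D5:**
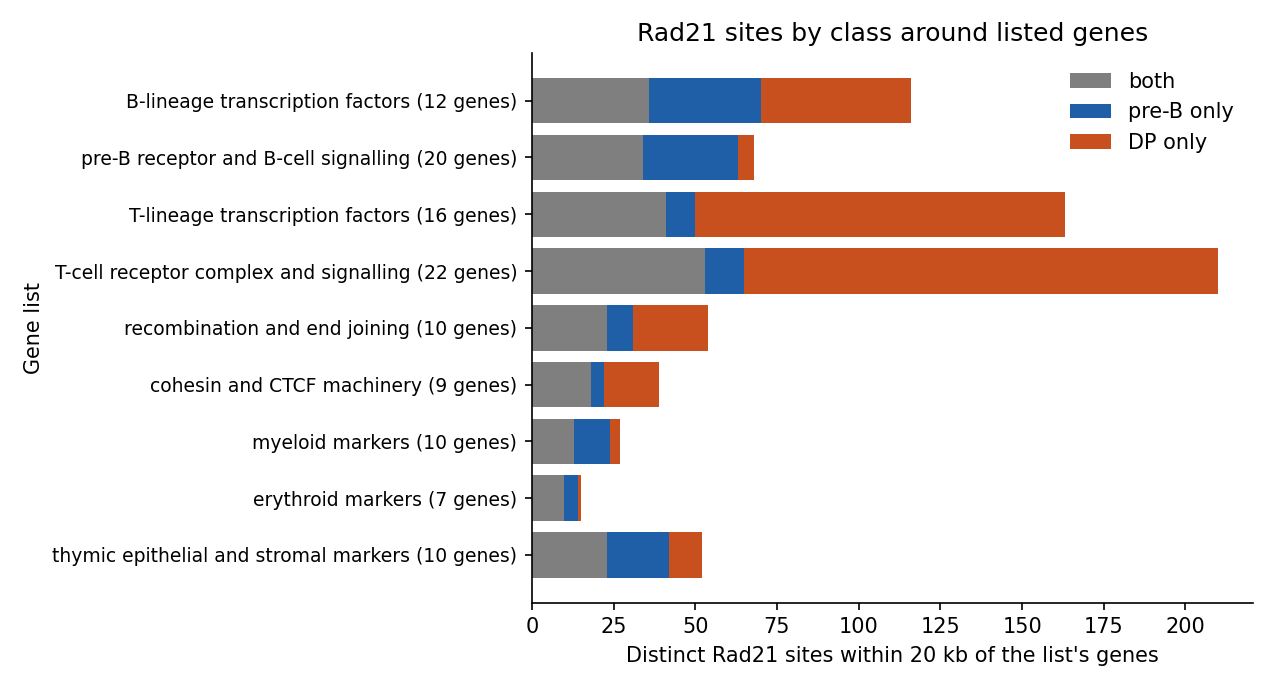
Distinct Rad21 sites within 20 kb of the genes of 9 lists, by class. DP-only sites make up most of the bars of T-lineage transcription factors (113, with 9 pre-B only) and of the T-cell receptor complex (145, with 12 pre-B only), while the pre-B receptor list has 29 pre-B-only and 5 DP-only sites.

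Over all protein-coding genes, the largest surplus of pre-B-only over DP-only sites included a few known B-lineage genes among long genes of other roles. Leaving aside Fgfr2, whose annotated body of 3009 kb spans its neighbours, Pax5 came first with 11 and 0. Mef2c, a factor of B-cell development, had 9 and 0, with ranks up to 87.4. Ltbp1 and Rad51l1 had 10 and 0 each, Shank2 had 9 and 0, Camta1 had 9 and 1, and Hip1, Tmtc1 and Lhpp had 8 and 0. The largest surplus of DP-only sites was at Clec16a, with 24 and 0, leaving aside Gm20388, a transcript of 4435 kb that spans many genes. Runx1, a regulator of thymocytes, had 22 DP-only and 1 pre-B-only sites, with ranks up to 96.1. Smyd1 and Tbc1d22a had 20 and 0 each, Arid1b, a subunit of a chromatin remodeller, had 23 and 3, and Cd8b1, Bcl11b and Wdr78 had 19 and 0 each. Hpcal1 had 18 and 0. Smyd1 adjoins Cd8b1, and their neighbourhoods overlap in part. Fgfr2 had 31 pre-B-only and 13 DP-only sites, and Gm20388 had 111 DP-only and 52 pre-B-only sites. Without these genes the surplus reached 24 sites in the DP direction and 11 in the pre-B direction. These counts are from the full lists, in which DP-only sites are more numerous.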

How the data were processed

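Rad21 and CTCF ChIP-seq peaks were compared by position. Per the methods, the authors discarded duplicates, trimmed adapters, kept alignments to mm9 with at most 3 genomic positions and ran MACS on each library against its input. The submitters' processing notes name Bowtie 0.12.9 and MACS 1.4.2. The authors deposited the position and a score for each peak. The score grows with depth, which is not given in the files, so it was used to rank peaks within a list (rank: percent of the list with a lower score), heights were not compared, and 1 alternative alone set the same score limit in both lists. Keeping reads with several places can put peaks in repeats.

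Peaks on chromosomes 1 to 19 were kept. Antigen receptor loci, widened by 100 kb, were left out with 254 pre-B and 337 DP peaks. Promoters, genes and start sites came from GENCODE vM1 on the same build, and 0 peaks passed a chromosome end. Spi1 and Syk were found under older symbols. The CTCF consensus was read from the study's motif list and comes from CTCF peaks of B-lineage cells. Surroundings were windows 2000 bp downstream of the site's centre.

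Each group has 1 library, so shares carry exact Clopper-Pearson intervals at 95% that cover counting error only and treat sites as independent. The named genes are the 10 strongest sites of each class, the 10 genes with the largest surplus of sites in each direction, up to 4 leading genes of each list and class, and the 5 longest runs. Others were named after their values were seen, and some genes of the lists are not reported here by name. The comparison, members and gene lists were chosen with earlier results of these data known. The matching of peaks and their placing were tested on simulated data. Scripts ran in Python 3.11.15 with scipy 1.17.1 for intervals and pysam 0.24.0 for sequences. Alternatives were list length, score, overlap, receptor loci, promoter definition, mismatches and gene distance, and runs in the cut DP list were added after the data were seen.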

Additional observations from a re-analysis of the deposited data

How the results depend on the processing

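The order of the promoter shares, with DP-only sites highest and pre-B-only sites lowest, was the same under the 8 alternatives tried for them, and so was the order of the CTCF shares under the 3 that changed the lists. With the DP list cut to the length of the pre-B list, the overlap came to 61.9% of pre-B and 62.2% of DP peaks, and the promoter share of DP-only sites to 33.5%. Pre-B CTCF then lay at 93.3% of sites in both, 80.1% of pre-B-only and 19.6% of DP-only sites, CTCF of the IL7 culture at 83.3% of pre-B-only and 35.4% of DP-only sites, and DN Rad21 at 45.9%, 4.82% and 3.53%. The consensus was in 13.2% of DP-only sites, and DP-only sites were left at 2 stromal and 0 erythroid marker genes. With both lists cut to 10000 peaks, 63.2% and 63.6% overlapped, 6316 sites were in both, 3676 pre-B only and 3642 DP only, and the promoter shares were 14.8%, 11.3% and 30.0%. Pre-B CTCF then lay at 99.8%, 99.5% and 64.6%, CTCF of the IL7 culture at 99.9%, 99.3% and 74.9%, and DN Rad21 at 82.4%, 34.7% and 31.1%. A site then counted as called in 1 list also where its partner peak lay below the cut. With scores below 100 left out, a limit that need not mean the same in both libraries, 65.9% and 60.4% overlapped, DP-only sites numbered 9507, and the promoter shares were 17.4%, 12.9% and 34.8%. Pre-B CTCF then lay at 97.3%, 91.7% and 29.2%, CTCF of the IL7 culture at 98.0%, 91.9% and 44.9%, and DN Rad21 at 54.6%, 8.81% and 6.13%. With peaks up to 500 bp apart counted as shared, 68.7% and 58.2% had a counterpart, and the promoter share of pre-B-only sites was 13%. Promoters of 2500 bp gave shares of 26.8%, 20.9% and 38.3%, and start sites of protein-coding genes alone gave 18.4%, 12.8% and 31.0%. With 1 mismatch the consensus was in 16.7%, 10.7% and 2.33%. With gene bodies widened by 50 kb, pre-B-only sites were found at 10 T-lineage factors, 11 genes of the T-cell receptor complex, 9 recombination genes and 5 erythroid markers, and DP-only sites at 12 pre-B receptor genes, 8 recombination genes, 4 myeloid and 2 erythroid markers, beside 51.8% and 56% of all genes with a pre-B-only and a DP-only site. In each trio the order is in both, pre-B only and DP only. An overlap of 50% of the shorter peak and keeping the receptor loci left the overlap and promoter shares within their 95% intervals, with 19715 and 19878 sites in both, 9731 and 9748 pre-B only and 15705 and 15734 DP only. No paired analysis was possible because each cell type has 1 library. For the same reason no library could be left out, and the depth behind the lists is unknown.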
